A study of Mus musculus with 8 samples.

Results

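The genes described here are the ligands, receptors, Smads and antagonists of the BMP and TGF-beta pathways, chosen by name from a list of 51 genes. The table of values holds 50 of them among its 20926 genes, 18 ligands (with the protease Bmp1 counted among them), 11 receptors, 8 Smads and 13 antagonists, and Gdf15 is not analysed here. RNA-seq was carried out on molars of mice at PN day 3 (C57BL/6 by the labels, a mixed background by the study's methods), from which the epithelium had been taken off to leave the mesenchyme. The 4 control libraries came from Ezh2fl/fl mice, which carry floxed Ezh2 and no Cre. The 4 Osr2-Ezh2cko libraries came from Osr2KI-Cre;Ezh2fl/fl mice, in which Cre is made where Osr2, a gene of the palatal and dental mesenchyme, is active. Ezh2 is the enzyme of the PRC2 complex that trimethylates lysine 27 of histone H3, a mark of repressed genes. Since no control carries Cre, the Cre allele and the loss of Ezh2 cannot be told apart.

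BMPs, GDFs, activins and TGF-betas are secreted dimers that bring together type II and type I receptor kinases on the cell surface. The type I kinase phosphorylates Smad1, Smad5 and Smad9 on the BMP side, or Smad2 and Smad3 on the TGF-beta and activin side, and these enter the nucleus with Smad4. Smad6 and Smad7 inhibit the cascade, and noggin, follistatin, sclerostin and their relatives bind ligands or receptors outside the cell. In the tooth these signals pass back and forth between epithelium and mesenchyme, and they take part in the formation of the root, the dentin and the bone around the tooth.

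A filter on low values (at least 1 in 4 of the 8 libraries) left 48 of the 50 genes to test, and 3 of them rose in Osr2-Ezh2cko molars at an adjusted p under 0.05 in limma: the ligand genes Bmp6 and Bmp5 and the type I receptor gene Acvrl1. None fell at that threshold. The 3 genes are 6.25% of those tested, beside 1.56% of all 14854 tested genes that rose, and the 0 that fell stand beside 0.512% of all genes. At an unadjusted p under 0.05, 13 pathway genes were higher in Osr2-Ezh2cko (27.1%, beside 8.27% of all genes) and 2 were lower (4.17%, beside 4.87%). The median log2 fold change was 0.06 over the 48 genes and 0.01 over all genes tested, and 62.5% of the pathway genes and 54.1% of all genes had a positive value. In 9 of the tested pathway genes every Osr2-Ezh2cko library lay above every control library (18.75%, beside 5.76% of all genes), and in 2 every one lay below (4.17%, beside 2.77%). One of these genes, Sost, passed the filter through the Osr2-Ezh2cko libraries alone, and without it 12 of 47 genes (25.5%) were higher at an unadjusted p and 8 of 47 (17.0%) lay above every control. A fit on the 5 libraries that remain without the 3 richest in enamel transcripts called 0 of the 47 pathway genes it tested, beside 0.00693% of all 14435 genes, which is 1 gene. At an unadjusted p under 0.05, 7 were higher in that fit (14.9%, beside 3.93% of all genes) and 1 was lower (2.13%, beside 2.92%).

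**Figure D1:**
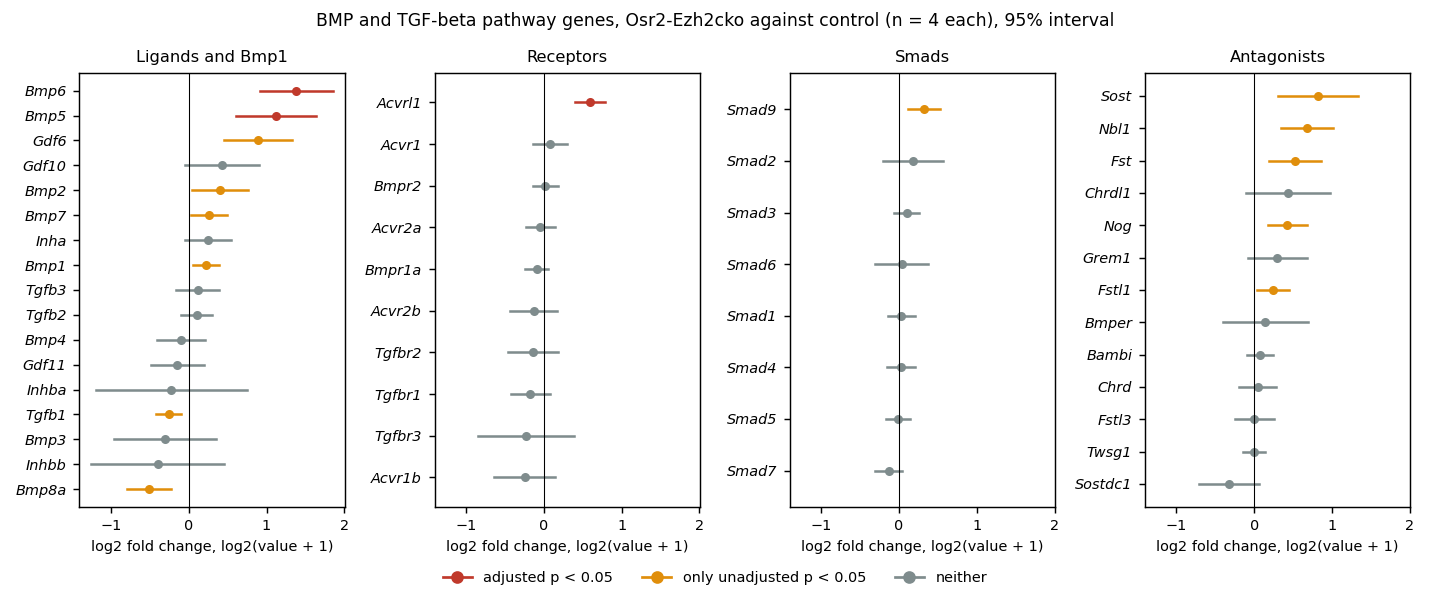
Log2 fold change on the log2(value + 1) scale (points) with its 95% interval from limma (lines) for the 48 tested pathway genes in 4 panels by role, Osr2-Ezh2cko against control, n = 4 each. Bmp6, Bmp5 and Acvrl1 are the 3 red points, the other 12 genes with an unadjusted p under 0.05 are orange, and 30 of the 48 points lie to the right of 0.

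The stretch before the transcription start is shown for Bmp5, one of the 2 ligand genes that rose, because PRC2 in mammals is known for binding at CpG-rich promoters so that its CG dinucleotides can be seen. The run gives the 249 bases that lie before both the RefSeq start and the GENCODE gene, chr9:75775115-75775363 on GRCm38.p6, 5′ to 3′ on the + strand, with every CG dinucleotide in capitals.
Bmp5: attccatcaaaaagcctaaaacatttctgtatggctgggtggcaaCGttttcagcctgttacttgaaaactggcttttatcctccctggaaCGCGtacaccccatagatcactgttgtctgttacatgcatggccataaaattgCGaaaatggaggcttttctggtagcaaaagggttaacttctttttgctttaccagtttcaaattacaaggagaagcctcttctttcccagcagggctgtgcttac

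Windows of 250 bases before the RefSeq start were compared by base composition. The window of Bmp5 holds 4 CG dinucleotides at a GC content of 42.8%, and 37.8% of the 32851 RefSeq promoter windows of the same length hold fewer. The window of Bmp6 holds 22 at a GC content of 68.8%, and 85.2% of windows hold fewer. RefSeq and the table both start Bmp6 at chr13:38345716, whereas its GENCODE gene starts at 38345107, so this window lies inside the GENCODE gene and is not a stretch before it. RefSeq promoters were matched for 33 of the 50 pathway genes, and 32 of these start within 1000 bases of the start in the table. Of these 32, 8 have fewer than 200 bases before their own GENCODE gene, that of Bmp6 among them. Over those 32 the median was 22 CG dinucleotides, from 3 to 49, beside a median of 6 over all windows. The letters GGCGCC, which BMP Smads are known to bind and which read the same on both strands, stood in 7 of the 32 windows (21.9%) and in 9.59% of all windows. GGCGCC is made of G and C only and holds a CG, and the 32 windows are richer in CG. These shares were not matched for base composition, so they do not show an excess of Smad sites. The letters CAGACA, searched on both strands (TGTCTG on the other) and able to share at most 1 letter with GGCGCC, stood in 3 of the 32, the window of Bmp5 among them, and in 17.1% of all windows.

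The libraries held 48.3 to 68.8 M estimated reads, and correlations between libraries of a group were 0.976 to 0.994. A value is a normalized expression value of the authors. As far as the table shows, it has no gene-length factor, the 75th percentiles of the libraries are nearly equal, and each library's smallest value was taken as 1 read added to every gene, an inference on which all estimated reads rest. Ezh2 itself was at 55.0, 38.3, 39.6 and 39.0 in the control and 35.2, 30.1, 23.2 and 36.0 in the Osr2-Ezh2cko libraries, each given in the order of the replicates here and throughout, lower in each of the latter by a log2 fold change of -0.46 (SE 0.16, limma adjusted p = 0.235). Transcripts of dental mesenchyme were abundant throughout, with a sum over 8 markers of 8129 to 9410.0 in control and 7056 to 8604 in Osr2-Ezh2cko libraries. Of the 8 markers, Prrx1, Twist1 and Msx1 were higher at an unadjusted p under 0.05 (37.5%, beside 8.27% of all genes). The log2 fold change was positive in 6 (75%, beside 54.1%) and negative in Vim and Col1a2, and none passed the adjusted threshold. Epithelial transcripts were still present, with a sum over 10 markers of 2626 to 5387 and 2412 to 3271. All 10 had a negative log2 fold change, and Dsp fell past the adjusted threshold (10%, beside 0.512% of all genes). Enamel transcripts were uneven, with a sum over 6 genes of 810.4 to 28712 and 736 to 11510, highest in control libraries 3 and 4 and Osr2-Ezh2cko library 3. Xist and the Y-linked Ddx3y were both above 30 in 3 control libraries and 1 Osr2-Ezh2cko library, while 2 other Osr2-Ezh2cko libraries held Xist alone and 1 library of each group held Ddx3y alone. Whether a library is 1 animal or a pool is not given in the sources used here, so the p-values measure the spread between these libraries. In bulk tissue, fewer cells of a type and less RNA per cell cannot be told apart.

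The ligand genes held the largest differences. Of 17 tested, 2 rose at an adjusted p under 0.05 (11.8%, beside 1.56% of all genes). A further 4 were higher and 2 lower at an unadjusted p alone, and the median log2 fold change was 0.11. In all 35.3% were higher at an unadjusted p, beside 8.27% of all genes, and 11.8% lower, beside 4.87%. By level per kb of exon, a scale on which genes can be compared, Tgfb2 was highest in control molars at 31.4, followed by Bmp7 at 30.4 and Tgfb3 at 27.9. Bmp6 and Bmp5, the genes that rose, were far down that order at 0.774 and 3.28.

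Bmp6 encodes a BMP of the Bmp5, Bmp6 and Bmp7 subgroup that drives cartilage and bone formation and the hepatic control of iron. Controls 1 to 4 had values of 2.33, 4.17, 2.60 and 2.98, and Osr2-Ezh2cko libraries 1 to 4 had 5.82, 11.7, 10.4 and 10.5. The groups did not overlap, and the lowest Osr2-Ezh2cko value, that of library 1, stood clear of the highest control value, that of library 2. The mean was 3.02 ± 0.813 (SD, n = 4) against 9.60 ± 2.59 (SD, n = 4), resting on 133 to 310 and on 306 to 810 estimated reads per library. Bmp6 rose by a log2 fold change of 1.38 (SE 0.21, limma adjusted p = 0.0106), which is 2.61-fold on the log2(value + 1) scale. In the 8 fits that omit a library, the log2 fold change stayed between 1.28 and 1.58 and the adjusted p between 0.00334 and 0.0462. Without the 3 libraries richest in enamel transcripts the adjusted p was 0.35. Bmp6 lies at chr13:38345107-38500302 and overlaps Txndc5 and 4930579J19Rik on the opposite strand, and whether the reads were counted by strand is not given in the sources used here. Txndc5 was at 375 to 406 in control and 348 to 448 in Osr2-Ezh2cko libraries, and those ranges overlap.

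Bmp5 encodes a close relative of Bmp6 that is known from the short ear mouse for its part in cartilage and skeletal growth. The control libraries held 9.95, 12.5, 11.3 and 19.0 and the Osr2-Ezh2cko libraries 20.5, 28.4, 41.7 and 29.5. The groups did not overlap, but control library 4 and Osr2-Ezh2cko library 1 came close to each other. Bmp5 rose by a log2 fold change of 1.124 (SE 0.23, limma adjusted p = 0.041), from a mean of 13.2 ± 3.99 to 30.0 ± 8.75 (SD, n = 4 each). The call was lost in 6 of the 8 fits that omit a library. The adjusted p was 0.0796, 0.111 and 0.152 without control library 1, 2 or 3 and 0.107, 0.0834 and 0.114 without Osr2-Ezh2cko library 2, 3 or 4, with a log2 fold change of 0.96 to 1.30 over the 8 fits. At chr9:75775364-75900310 it overlaps Gm26903 on the opposite strand, which was at or under 0.247 in every library, and Gm47723 on the same strand, for which no value is used here.

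Gdf6 encodes a ligand that is known for setting joint boundaries, and it was just outside the threshold. It had 1.81, 2.31, 1.41 and 2.06 in the control and 4.57, 2.82, 6.48 and 4.03 in the Osr2-Ezh2cko libraries. No value of the 2 groups overlapped, and the log2 fold change was 0.89 (SE 0.19, limma adjusted p = 0.0535). Without Osr2-Ezh2cko library 2 the adjusted p was 0.0315, and over the 8 fits that left out a library it reached 0.187. Gdf5, its nearest relative in the family, was under the filter, with 0.376, 0.751, 1.67 and 2.69 in control and 0.396, 0.271, 1.03 and 0.245 in Osr2-Ezh2cko libraries. Those groups overlapped, and an exact two-sided permutation test over the 70 arrangements of the libraries gave p = 0.2.

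Bmp2 and Bmp7, which are both expressed in the developing tooth, and Bmp1, a protease that cleaves procollagens and the BMP antagonist chordin, were higher by smaller amounts. Bmp2 was at 84.4, 74.0, 54.9 and 73.5 in control and 74.8, 96.8, 119.9 and 89.1 in Osr2-Ezh2cko libraries, and the groups overlapped in 1 library of each. Bmp7 was at 125, 121, 119.9 and 122 in control and 132, 179, 127 and 154 in Osr2-Ezh2cko libraries. The 4 control values of Bmp7 were the tightest of all the pathway genes, with a coefficient of variation of 1.804%, and every Osr2-Ezh2cko value lay above them. Bmp1 was at 162, 168, 149 and 151 in control and 164, 184, 196 and 188 in Osr2-Ezh2cko libraries. The log2 fold changes of Bmp2, Bmp7 and Bmp1 were 0.40, 0.26 and 0.22 with limma adjusted p of 0.316, 0.307 and 0.229, so none of them passed the adjusted threshold.

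Bmp8a and Tgfb1 were the 2 pathway genes with lower values at an unadjusted p under 0.05. Bmp8a, a BMP best known from the germ line, was at 30.3, 33.0, 37.4 and 34.2 in control and 18.1, 25.1, 27.9 and 23.2 in Osr2-Ezh2cko libraries. The groups did not overlap, with a log2 fold change of -0.51 (SE 0.13, limma adjusted p = 0.0847). It overlaps Oxct2a on the same strand, so reads in the shared part could belong to either. Tgfb1, the widely expressed founding member of the TGF-betas, was at 97.5, 109, 101 and 104 in control and 95.7, 80.7, 84.0 and 82.6 in Osr2-Ezh2cko libraries. Osr2-Ezh2cko library 1 stood just under the lowest control library, and the other three well below it. The log2 fold change of Tgfb1 was -0.26 (SE 0.07, limma adjusted p = 0.122), and of the 8 fits that omit a library only that without Osr2-Ezh2cko library 1 had an adjusted p under 0.05, at 0.0393, the others reaching 0.318.

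Tgfb2, the ligand gene with the highest level per kb of exon, was at 159, 185, 192 and 192 in control and 220.0, 189.8, 186 and 185 in Osr2-Ezh2cko libraries. The groups overlapped, and the 95% interval of the log2 fold change ran from -0.09 to 0.30. The remaining ligand genes had unadjusted p above 0.05 and overlapping groups. Among them Gdf10, at a log2 fold change of 0.43, and the inhibin alpha gene Inha, at 0.25, were on the higher side, with Tgfb3 at 0.11. Bmp4, the main BMP of the early dental mesenchyme, was at -0.10, Gdf11 at -0.15, the activin subunit genes Inhba and Inhbb at -0.22 and -0.40, and Bmp3 at -0.30. Inhbb varied most of the tested pathway genes within the control group, with a coefficient of variation of 56.4%.

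**Figure D2:**
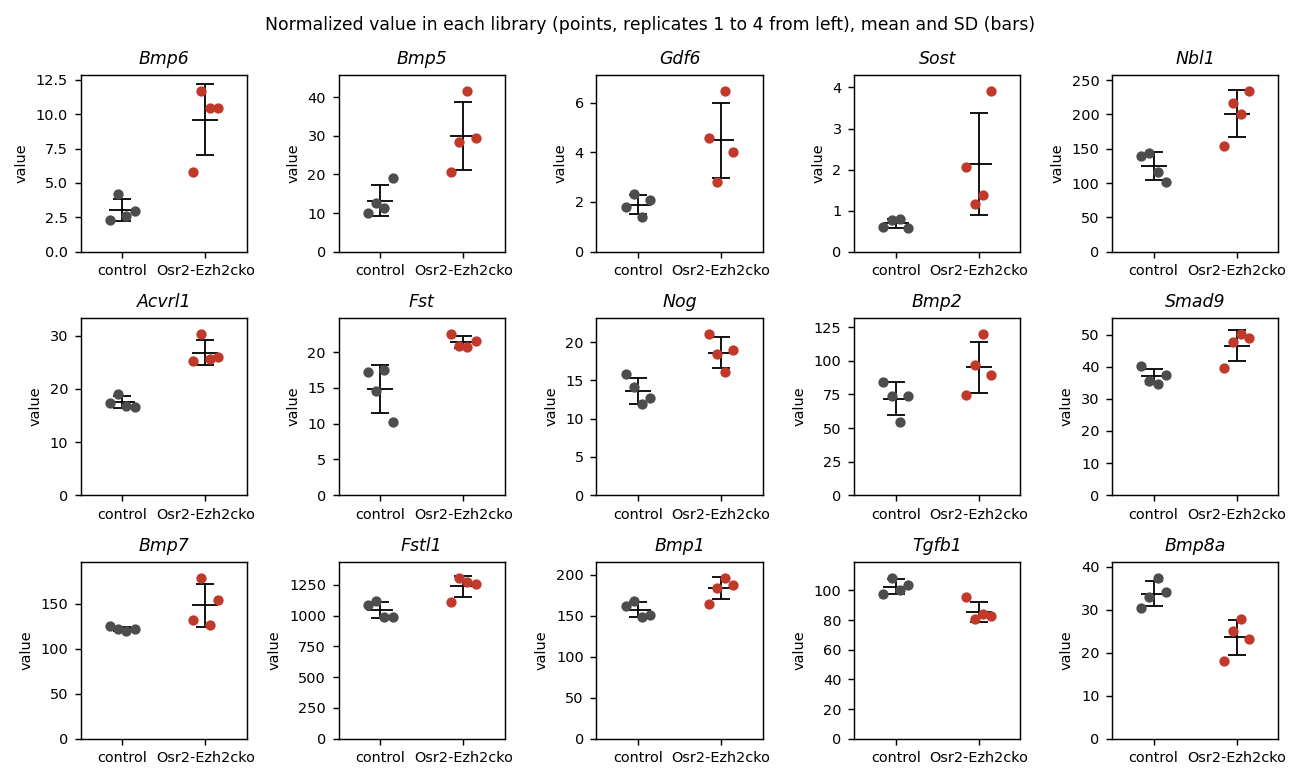
Normalized value (y axis, from 0) in each library (points, replicates 1 to 4 from left to right) with the mean and SD (bars) for the 15 pathway genes with an unadjusted p under 0.05, control in grey and Osr2-Ezh2cko in red, n = 4 each. The groups do not overlap for 11 of the 15 genes, and in Bmp6 the 4 control values lie between 2.33 and 4.17 and the 4 Osr2-Ezh2cko values between 5.82 and 11.7.

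Among the tested receptor genes only Acvrl1 passed the adjusted threshold. Of 10 tested, 1 rose (10%, beside 1.56% of all genes) and no other passed an unadjusted p of 0.05 (10%, beside 8.27% higher). The median log2 fold change was -0.11, and 30% were positive, beside 54.1% of all genes. Acvrl1 encodes ALK1, a type I receptor for BMP9 and BMP10 that is best known in blood vessels. Its values were 17.3, 19.1, 16.8 and 16.6 in control and 25.2, 30.3, 25.7 and 26.01 in Osr2-Ezh2cko libraries. The groups were far apart relative to their spread, and Osr2-Ezh2cko library 2 stood above the other three. Acvrl1 rose by a log2 fold change of 0.59 (SE 0.08, limma adjusted p = 0.00888), 1.51-fold on the log2(value + 1) scale. In the 8 fits that omit a library the adjusted p was 0.0148 to 0.0434. It was 0.0595 with the replicate number as a block and 0.265 without the 3 libraries richest in enamel transcripts. Acvrl1 lies at chr15:101128522-101145336 and overlaps Gm16031 on the opposite strand, for which no value is used here.

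The markers of blood vessels lay on the other side from Acvrl1. All 7 endothelial markers had a negative log2 fold change. Of them 3 (Pecam1, Cdh5 and Kdr) were lower at an unadjusted p under 0.05 (42.9%, beside 4.87% of all genes). None passed the adjusted threshold (beside 0.512% of all genes that fell). Their sum was 363 to 414 in control and 328 to 361 in Osr2-Ezh2cko libraries, so each Osr2-Ezh2cko library was below each control library. Eng, the endothelial co-receptor that works with ALK1, had a log2 fold change of -0.14 (limma adjusted p = 0.505). The markers of cartilage lay on the same side as Bmp5, Bmp6 and Acvrl1. All 4 in the table had a positive log2 fold change (beside 54.1% of all genes), 3 of them at an unadjusted p under 0.05 (75%, beside 8.27%). Acan and Col2a1 passed the adjusted threshold (50%, beside 1.56%). The sum was 71.7 to 87.9 in control and 100.2 to 133 in Osr2-Ezh2cko libraries. Of 5 bone markers tested, Ibsp rose (20%, beside 1.56% of all genes), at 82.1 to 141 in control and 331 to 498 in Osr2-Ezh2cko libraries. The other bone markers did not pass an unadjusted p of 0.05. Bglap, Bglap2, Spp1 and Sp7 were at log2 fold changes of -0.40, -0.37, -0.31 and 0.03, and the median over the 5 was -0.31. The marker with the lowest values in these 3 lists was Mepe, a bone marker under the filter, with 3 to 26 reads by estimate in the controls and 6 to 98 in Osr2-Ezh2cko libraries. The part of these cells in the rise of the 3 genes was not tested.

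Bmpr1a, a BMP type I receptor gene, had the highest level per kb of exon among the receptors, at 36.3 in control molars. It was at 225, 235, 237 and 225 in control and 209.6, 208, 237 and 210.5 in Osr2-Ezh2cko libraries, overlapping only through Osr2-Ezh2cko library 3, with a 95% interval of the log2 fold change from -0.24 to 0.05. Bmpr1b, another BMP type I receptor gene, was the lowest of all 50 genes at 0.0273 per kb and was under the filter. It was at 0.174, 0.201, 0.138 and 0.138 in control and 0.436, 0.258, 0.552 and 0.374 in Osr2-Ezh2cko libraries, on 7 to 14 and 16 to 38 estimated reads. The groups of Bmpr1b did not overlap. That alone fixes the exact two-sided permutation p at 0.0286, the smallest that 4 against 4 libraries allow, so the test adds nothing to the separation.

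The remaining receptor genes overlapped between the groups. The type I receptor genes Acvr1, Acvr1b and Tgfbr1 were at log2 fold changes of 0.08, -0.25 and -0.18. The type II receptor genes Bmpr2, Acvr2a, Acvr2b and Tgfbr2 were at 0.02, -0.04, -0.13 and -0.14. The co-receptor gene Tgfbr3, which encodes betaglycan, was at -0.23. Some of these intervals were narrow, that of Bmpr2 running from -0.15 to 0.18, and others were wide, that of Tgfbr3 running from -0.84 to 0.39.

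The Smad genes differed little. Of 8 tested 0 passed the adjusted threshold in limma, 1 was higher (12.5%, beside 8.27% of all genes) and 0 lower (beside 4.87%) at an unadjusted p under 0.05, and the median log2 fold change was 0.03. Smad9, which encodes a Smad of the BMP branch, was at 40.1, 35.6, 34.7 and 37.5 in control and 39.5, 47.6, 50.1 and 48.8 in Osr2-Ezh2cko libraries. It overlapped only through Osr2-Ezh2cko library 1, and the log2 fold change was 0.32 (SE 0.09, limma adjusted p = 0.125). Without that library the adjusted p was 0.0292, and the other fits that omit a library were above 0.05, up to 0.390. Smad6, an inhibitory Smad that is itself switched on by BMP signals, had the highest level per kb of exon of the Smads at 32.7. Its values were 135, 102, 89.0 and 93.1 in control and 107, 119, 82.7 and 119 in Osr2-Ezh2cko libraries, which overlapped widely. The other receptor-regulated Smad genes Smad1, Smad2, Smad3 and Smad5 were at log2 fold changes of 0.03, 0.18, 0.10 and -0.01, the common Smad4 at 0.03 and the inhibitory Smad7 at -0.14. The 95% interval of Smad5 ran from -0.17 to 0.14 and that of Smad4 from -0.15 to 0.21.

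None of the 13 antagonist genes tested passed the adjusted threshold in limma. At an unadjusted p under 0.05, 5 were higher (38.5%, beside 8.27% of all genes) and 0 lower (beside 4.87%), 11 had a positive log2 fold change (84.6%, beside 54.1%), and the median was 0.25, beside 0.01 over all genes. Without Sost, which passed the filter through the Osr2-Ezh2cko libraries alone, 4 of 12 were higher at that p (33.3%), 10 were positive (83.3%) and the median was 0.19. Nbl1, which encodes the BMP antagonist DAN, was at 139, 144, 116 and 101 in control and 154, 216, 200.3 and 235 in Osr2-Ezh2cko libraries. Its groups did not overlap, and Osr2-Ezh2cko library 1 was nearest to the controls. The log2 fold change was 0.68 (SE 0.15, limma adjusted p = 0.055), and without Osr2-Ezh2cko library 1 the adjusted p was 0.0202, while the other fits that omit a library were above 0.05, up to 0.189.

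Fst encodes follistatin, which binds activins and some BMPs, and overlaps Gm47040 on the opposite strand. It was at 17.2, 14.6, 17.6 and 10.2 in control and 22.5, 20.9, 20.7 and 21.6 in Osr2-Ezh2cko libraries. The Osr2-Ezh2cko values were the tightest of all the pathway genes in that group, with a coefficient of variation of 3.82%, and all of them lay above the controls. Nog encodes noggin, which holds BMP2, BMP4 and BMP7 away from their receptors, and it was at 15.8, 14.2, 11.9 and 12.7 in control and 21.04, 18.4, 16.1 and 18.9 in Osr2-Ezh2cko libraries. Its lowest Osr2-Ezh2cko value, in library 3, was next to its highest control value, in library 1. The log2 fold changes of Fst and Nog were 0.53 (SE 0.15) and 0.42 (SE 0.11), with limma adjusted p of 0.133 and 0.103.

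Sost encodes sclerostin, an inhibitor of bone formation made by osteocytes that acts mainly on Wnt signals. It was at 0.608, 0.778, 0.791 and 0.581 in control and 2.07, 1.17, 1.39 and 3.92 in Osr2-Ezh2cko libraries. The gene passed the filter only through the Osr2-Ezh2cko libraries, where it varied most of the tested pathway genes with a coefficient of variation of 58.6%, and the groups did not overlap. The log2 fold change of Sost was 0.82 (SE 0.23, limma adjusted p = 0.125), on 34 to 57 and 76 to 303 estimated reads.

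Fstl1, a follistatin-like secreted glycoprotein gene, had the highest level per kb of exon of all 50 genes, at 213 in control molars. It was at 1084, 1118, 991 and 986 in control and 1114, 1308, 1274 and 1260.1 in Osr2-Ezh2cko libraries, overlapping through control library 2 and Osr2-Ezh2cko library 1. The log2 fold change was 0.25 (SE 0.09, limma adjusted p = 0.266). The remaining antagonist genes overlapped between the groups. Chrdl1 was at a log2 fold change of 0.43, Grem1 at 0.30 and Bmper at 0.14. Bambi, a receptor without a kinase, was at 0.07, Chrd at 0.04, and Fstl3 and Twsg1 were each within 0.01 of 0. Sostdc1, which encodes ectodin and whose loss alters tooth number and cusps, was at -0.32 (SE 0.17, limma adjusted p = 0.494), with 128, 159, 179 and 130.1 in control and 158, 101, 93.4 and 129 in Osr2-Ezh2cko libraries.

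**Figure D3:**
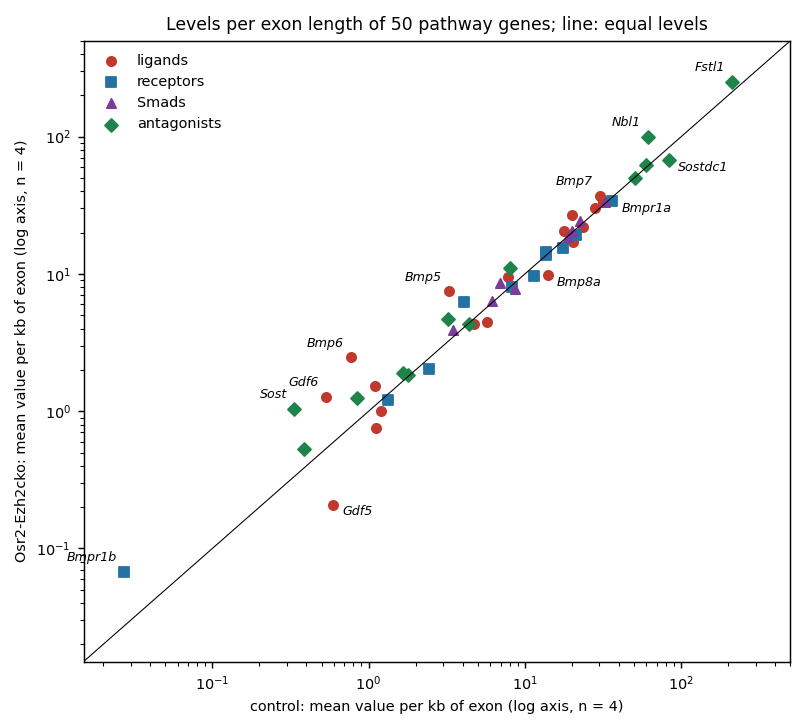
Mean value per kb of exon in control (x axis) and Osr2-Ezh2cko (y axis) libraries, both on log axes, n = 4 each, for the 50 pathway genes, with a marker for each role and a line of equal levels. The levels run in control molars from 0.0273 for Bmpr1b to 213 for Fstl1, and Bmp6, Gdf6, Sost and Bmpr1b, all among the lower genes, stand farthest above the line.

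Genes known to respond to BMP signals were examined next. Of 12 tested 0 passed the adjusted threshold in limma, 4 were higher (33.3%, beside 8.27% of all genes) and 0 lower (beside 4.87%) at an unadjusted p under 0.05, and the median log2 fold change was 0.03. Id1, Id2 and Id3, the direct and most widely used BMP targets, were at log2 fold changes of 0.04, -0.02 and -0.07, with 95% intervals of -0.24 to 0.32, -0.20 to 0.15 and -0.40 to 0.25. Id1 was at 139, 114, 109 and 103 in control and 131, 123, 94.6 and 129 in Osr2-Ezh2cko libraries, which overlapped. Runx2, the transcription factor of osteoblasts, was at 55.9, 72.4, 62.3 and 57.1 in control and 86.0, 84.9, 85.2 and 73.2 in Osr2-Ezh2cko libraries. Its groups did not overlap, and the log2 fold change was 0.41 (SE 0.09, limma adjusted p = 0.0678). The homeobox genes Msx1 and Dlx6 were at 0.27 and 0.22, with limma adjusted p of 0.28 and 0.292, and Atoh8 was at 0.64 with 0.321.

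Of 17 genes tested that respond to TGF-beta, 0 passed the adjusted threshold in limma, 3 were higher and 3 lower at an unadjusted p under 0.05 (17.6% each, beside 8.27% and 4.87% of all genes), and the median log2 fold change was -0.03. Tgfbi, a matrix protein gene named for its induction by TGF-beta, was at 274, 210.1, 164 and 223 in control and 288, 636, 384 and 504 in Osr2-Ezh2cko libraries. Its groups did not overlap, with a log2 fold change of 1.01 (SE 0.24, limma adjusted p = 0.0717). The immediate early gene Junb was at 19.1, 22.01, 19.1 and 20.4 in control and 17.9, 11.1, 13.0 and 13.2 in Osr2-Ezh2cko libraries. Its groups did not overlap either, in the other direction, with a log2 fold change of -0.53 (SE 0.13, limma adjusted p = 0.0847). Snai2, which encodes a repressor of epithelial genes, was at a log2 fold change of 0.37 (limma adjusted p = 0.108), and all of its Osr2-Ezh2cko values were above the controls.

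The genes that store, release or activate the ligands outside the cell were measured as well. Of 21 tested, 1 rose and 1 fell at an adjusted p under 0.05 (4.76% each, beside 1.56% and 0.512% of all genes), and the median log2 fold change was 0.09. At an unadjusted p, 3 in all were higher and 3 lower (14.3% each, beside 8.27% and 4.87% of all genes). Ltbp1 encodes a protein that binds latent TGF-beta and ties it to the matrix. It fell by a log2 fold change of -0.67 (SE 0.14, limma adjusted p = 0.0473), from 122, 106, 90.9 and 84.9 in control to 59.0, 70.5, 50.1 and 72.0 in Osr2-Ezh2cko libraries. Aspn encodes asporin, a small leucine-rich proteoglycan of the periodontal ligament that binds TGF-beta1 and BMP2. It rose by a log2 fold change of 1.56 (SE 0.33, limma adjusted p = 0.0499), from 11.3, 22.9, 24.5 and 32.3 to 54.5, 63.7, 112 and 45.0. For both genes the groups did not overlap, but the adjusted p was above 0.05 in each of the 8 fits that left out a library, at 0.0573 to 0.142 for Ltbp1 and 0.0555 to 0.135 for Aspn. Itgb8, an integrin gene whose product activates latent TGF-beta together with that of Itgav, was at a log2 fold change of -0.38 (limma adjusted p = 0.159) and Itgav at -0.21 (0.17).

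Among 11 further ligand and antagonist genes tested, 1 fell at an adjusted p under 0.05 (9.09%, beside 0.512% of all genes) and 0 rose. Mstn, which encodes myostatin, a brake on muscle growth, was at 1.75, 1.48, 1.72 and 1.67 in control and 0.872, 0.955, 1.09 and 0.852 in Osr2-Ezh2cko libraries. Mstn fell by a log2 fold change of -0.45 (SE 0.09, limma adjusted p = 0.0361) on 45 to 109 estimated reads, and its groups did not overlap. It passed the filter through the 4 control libraries and Osr2-Ezh2cko library 3, and with no filter the adjusted p was 0.0241. Of the fits that left out 1 library only that without Osr2-Ezh2cko library 3 kept its adjusted p under 0.05, at 0.0421, and the others gave up to 0.149. The adjusted p was 0.203 with the replicate number as a block and 0.0859 with enamel transcripts as a covariate. Of the 19 alternative fits that tested Mstn, 10 kept the call. Tll1, which encodes a relative of the Bmp1 protease, was at -0.46 (limma adjusted p = 0.08), and Kcp, which encodes a chordin-like protein, at 0.46 (0.282). Of 28 other receptor, co-receptor and intracellular regulator genes, 0 passed either threshold in limma, with log2 fold changes from -0.39 to 0.16. The lowest unadjusted p there were those of Eng at 0.096, Smurf1 at 0.182 and Usp15 at 0.194.

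**Figure D4:**
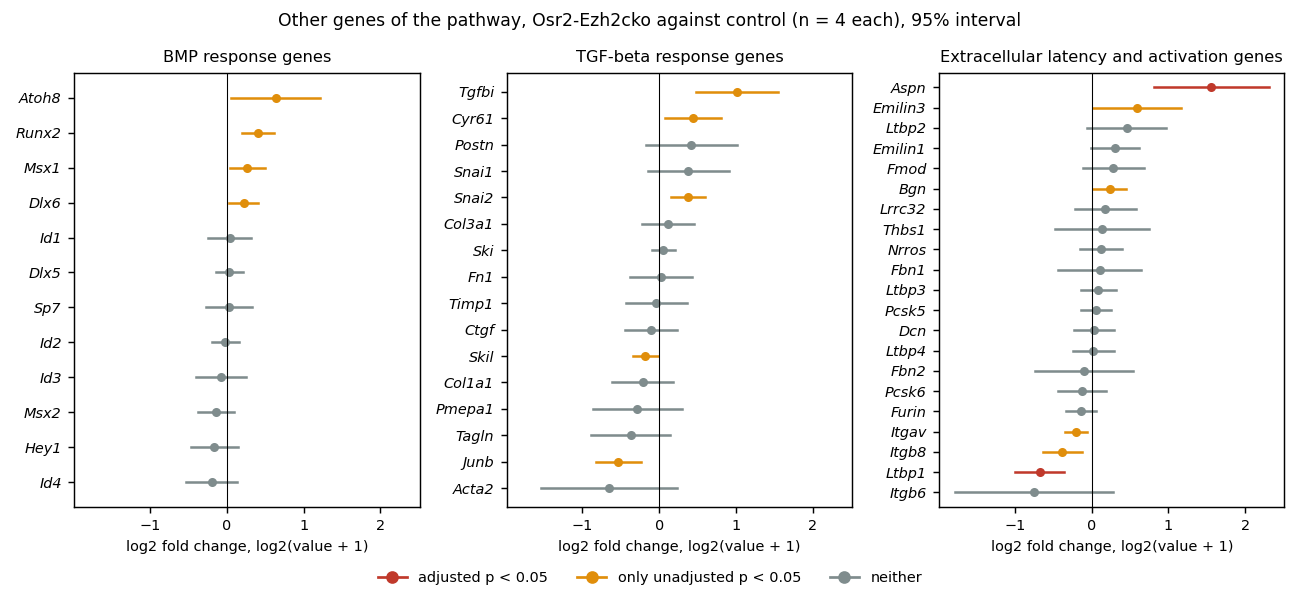
Log2 fold change on the log2(value + 1) scale (points) with its 95% interval from limma (lines) for tested BMP response genes (12), TGF-beta response genes (16 of the 17) and extracellular latency and activation genes (21), Osr2-Ezh2cko against control, n = 4 each. Only Aspn, at 1.56, and Ltbp1, at -0.67, are red for an adjusted p under 0.05, and Id1, Id2 and Id3 lie close to 0.

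Some pathway genes followed the uneven enamel transcripts of the libraries. In 9 of the 48 tested (18.75%), against 8.09% of all genes tested, and in Gdf5, which was under the filter, the values within each group were highest in the libraries richest in enamel transcripts, that is in control libraries 3 and 4 and in Osr2-Ezh2cko library 3. These were Bmp4, Bmp8a, Gdf5, Inhbb, Acvr1, Acvr1b, Tgfbr1, Tgfbr2, Tgfbr3 and Chrdl1. In 3 (6.25%, against 8.30% of all genes tested) they were lowest there, namely in Smad1, Smad6 and Nog. Inhbb was at 1.63, 4.08, 5.14 and 8.07 in control and 3.58, 2.41, 5.29 and 1.52 in Osr2-Ezh2cko libraries. Tgfbr3 was at 9.29, 13.7, 18.3 and 22.1 in control and 12.3, 10.1, 20.4 and 10.5 in Osr2-Ezh2cko libraries. Both genes thus differed within a group by more than the groups differed from each other. Bmp5, Bmp6 and Acvrl1 did not meet this rule, but the highest Bmp5 value of each group was in an enamel-rich library, control library 4 and Osr2-Ezh2cko library 3, while control library 3 lay below control library 2. With enamel transcripts as a covariate Bmp5 had a log2 fold change of 1.36 (limma adjusted p = 0.0101). Without those 3 libraries the log2 fold changes of Bmp5, Bmp6 and Acvrl1 were 1.14, 1.27 and 0.55, with limma adjusted p of 0.197, 0.35 and 0.265 over 2 control and 3 Osr2-Ezh2cko libraries.

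**Figure D5:**
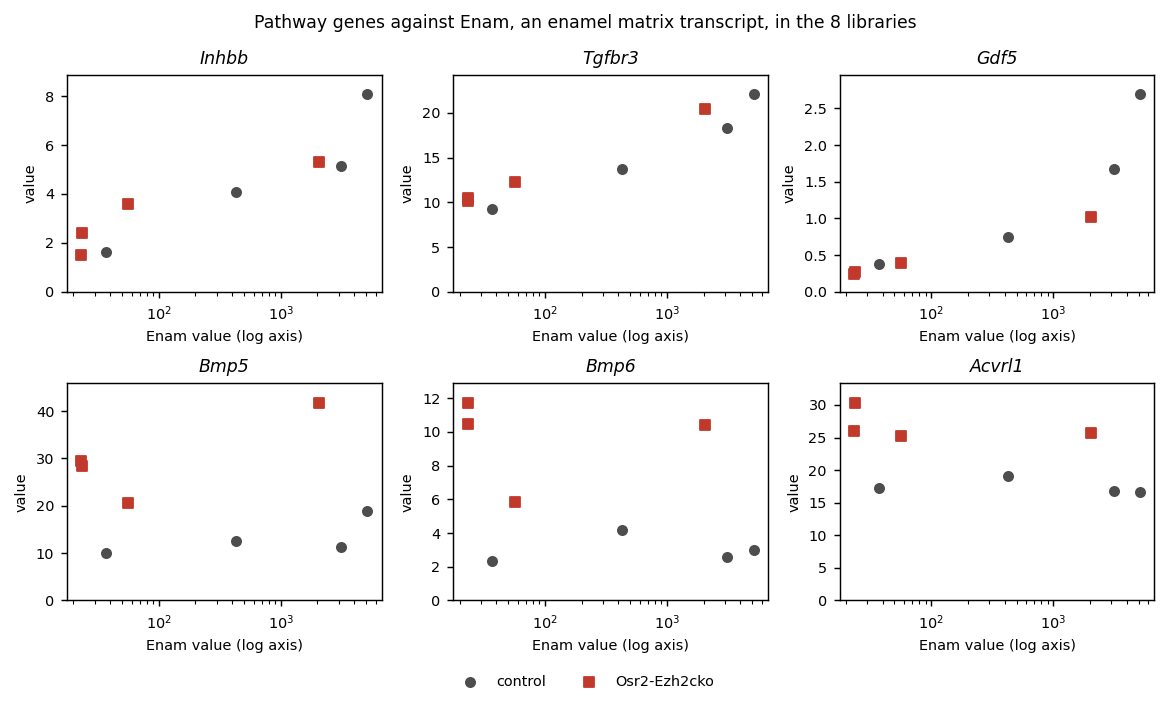
Value of 6 pathway genes (y axes, from 0) against the value of Enam, an enamel matrix transcript (x axis, log), in 4 control libraries (grey circles) and 4 Osr2-Ezh2cko libraries (red squares). Inhbb, Tgfbr3 and Gdf5 are highest where Enam is highest in each group, and Bmp5 has its highest value of each group in control library 4 and Osr2-Ezh2cko library 3, both rich in enamel transcripts. In Bmp5, Bmp6 and Acvrl1 every Osr2-Ezh2cko library lies above every control library.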

How the data were processed

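RNA-seq of molar mesenchyme from PN day 3 mice was analysed in 8 libraries, 4 per group, with groups and replicate numbers taken from the sample titles and genotypes. By the paper's methods, single-end reads of 75 cycles were aligned with TopHat to mm10 and normalized by RPKM, while the submitters' processing notes name STAR 2.5.3a, CASAVA 1.8.2 and Partek. The deposited values of the authors were treated as a signal, since no gene-length factor is visible in them and only 58.9% to 64.4% of the low values (under 20 times a library's smallest value) are within 0.02 of a whole multiple of it. No count test was therefore run. Estimated reads are each value over its library's smallest, minus 1, an inference that the table does not state. As not all low values are whole multiples, these reads are approximate beyond their counting error. Depth was 48.3 to 68.8 M estimated reads. Further columns of per-sample values in the table number 0.

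Differential expression was tested over the whole table with the limma package, version 3.58.1 (R 4.3.3; lmFit, then eBayes with trend), on log2(value + 1), for the 14854 genes that reached 1 in 4 or more of the 8 libraries, with Benjamini-Hochberg adjustment over all of them. A fold change on this scale understates the change of low genes. Single genes were also tested with exact two-sided permutation tests, for which the smallest p is 0.0286. Values are given per library for pathway genes with an unadjusted or adjusted p under 0.05, those whose groups do not overlap and the highest of each role per kb of exon, and for other lists those past the adjusted threshold. Genes of the other lists with the 3 smallest unadjusted p are given by their values per library or by a log2 fold change or p alone. Any others named were chosen after their values were seen. One listed gene that responds to TGF-beta is in the counts but is not reported by itself here. The members and lists were chosen with earlier results of these data known.

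Gene positions and exon lengths are those of GENCODE M21 on GRCm38, the build also called mm10, and promoters are from RefSeq on GRCm38.p6. Alternatives were pseudocounts of 0.1 and 5, no filter, a filter at 10, further scalings and limma settings, the replicate block, Xist and enamel covariates, and leaving out each library in turn. Leaving out the 3 libraries richest in enamel transcripts was added after the data were seen. Python 3.11.15, pandas 2.3.3 and matplotlib 3.10.9 were used for tables and plots.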

Additional observations from a re-analysis of the deposited data

Results flagged for a closer look

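Of 100 groups of 4 library values of the pathway genes, 6 held a value that stood apart by Dixon's test on the log2(value + 1) scale, where chance gives about 5. Acvrl1, the type I receptor gene that rose, was at 30.3 in Osr2-Ezh2cko library 2, where the other three held 25.2 to 26.01. Chrdl1, an antagonist gene, was at 14.2 in Osr2-Ezh2cko library 3 beside 6.36 to 6.76. Bmpr1a, a BMP type I receptor gene, was at 237 in Osr2-Ezh2cko library 3 beside 208 to 210.5. Tgfb2 was at 219.99 in Osr2-Ezh2cko library 1 beside 185 to 189.8. In the control group, Tgfb3 was at 74.96 in library 1 beside 98.3 to 104, and Twsg1, which modulates the binding of BMPs by chordin, was at 247 in library 4 beside 262 to 265.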

How the results depend on the processing

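Over 993 values of pathway genes under the alternatives, 948 stayed on their side of the adjusted threshold, 12 lost a call and 33 gained one. The sign changed in 53, from 19 genes, and 0 of those 53 passed the adjusted threshold in the fit where the sign changed. The count of 3 pathway genes at an adjusted p under 0.05 became 1 with a filter at a value of 10 (Acvrl1, with Bmp5 at 0.0587 and Bmp6 under the filter). It became 28 with array weights, in both directions (Tgfb1 was among the lower ones), beside 2165 higher and 1875 lower of all 14854 genes. With the enamel covariate it became 5, beside 216 higher and 86 lower over all genes. It was 0 without the 3 libraries richest in enamel transcripts, and 2 to 6 with each library left out (6 without Osr2-Ezh2cko library 1). The 13 that were higher at an unadjusted p under 0.05 became 7 without the 3 enamel-rich libraries and 9 to 14 with each library left out. Over all genes, 1229 were higher, 568 without those 3 libraries and 811 to 1361 with each library left out. The 2 that were lower became 16 with array weights, 1 without the 3 enamel-rich libraries and 2 to 5 with each library left out (5 without control library 1 or Osr2-Ezh2cko library 3). Over all genes, 724 were lower, 2773 with array weights, 421 without those 3 libraries and 459 to 945 with each library left out. That count was 902 without control library 1 and 945 without Osr2-Ezh2cko library 3. Fewer libraries remain in the fits that leave some out, and for the other settings the cause was not tested.

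The groups share the replicate numbers 1 to 4. Deviations of libraries with the same number correlated at -0.34, -0.08, 0.22 and -0.43, so no positive correlation was common to all 4 numbers. These are only 4 values, from libraries that differ widely in enamel transcripts. They cannot decide whether libraries with the same number belong together, so the fit with the replicate block is given as well. With the replicate block the count at an adjusted p under 0.05 was 1, that of Bmp6 (0.0199), with Acvrl1 at 0.0595 and Bmp5 at 0.0631. Over all genes, 232 rose and 76 fell. These counts were 64 and 9 with the replicate block, 88 and 31 with the filter at 10, 2165 and 1875 with array weights, 1 and 0 without the 3 enamel-rich libraries, and, with each library left out, from 108 and 20 (without control library 3) to 292 and 92 (without Osr2-Ezh2cko library 1). Bmpr1b rests on 7 to 38 estimated reads per library, and the depth needed for a call was not tested.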

Other observations

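Transcripts of other cell types in the mesenchyme were also measured, and no list of them held a gene past the adjusted threshold in limma. Of 5 odontoblast markers, all had a negative log2 fold change. Dspp, which encodes the main non-collagen protein of dentin, and Phex were lower at an unadjusted p under 0.05 (40%, beside 4.87% of all genes). The sum over the odontoblast list was 2010.1 to 3433 in control and 1136 to 2782 in Osr2-Ezh2cko libraries. Macrophage and osteoclast markers (7 tested, 0 at an unadjusted p under 0.05) summed to 283 to 889.9 and 273 to 797. Schwann cell markers (4 tested, 0 at that p) summed to 25.7 to 43.6 and 27.1 to 46.4, and skeletal muscle markers (3 tested, 0 at that p) to 7.14 to 44.7 and 2.61 to 11.02.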
